A study of Mus musculus with 36 samples.

Results

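Acute phase proteins were followed through the mRNA of 10 genes, Saa1, Saa2, Saa3, Apcs, Orm2, Hp, Lcn2, Serpina3n, Itih4 and Il6, in 3 tissues, liver, white fat (WAT) and brown fat (BAT), of mice given an amino acid mixture or water. The members were taken by name: every probe set whose platform annotation held exactly 1 of these gene symbols was used. This gave 11 probe sets for 10 genes, of 45037 probe sets and 18193 gene symbols in all, with 2 probe sets for Saa1 and 1 for each other gene. The arrays were Affymetrix Mouse Genome 430 2.0 arrays, 36 in number, 1 for each of 3 tissues from each of 12 males of the outbred ddY stock. They were bought at 5 weeks of age, acclimatised for 1 week, and dosed by feeding tube once a day, 5 times, with 37.5 µL per g body weight of either 1.8% CAAM (casein amino acid mixture, free amino acids in the proportions of milk casein) or water. Food was taken away on the day of the last dose, and all mice were killed 4 h after it. The CAAM group held 5 mice (numbers 2, 4, 5, 6 and 7), and the water group held 7 mice (numbers 1 to 7). Per the study's methods, 2 further CAAM mice had been left out for the appearance of their livers. A group given another mixture of amino acids is not analysed here.

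The acute phase response is the change in plasma proteins that follows infection or tissue injury. Cytokines, above all interleukin-6 and interleukin-1, reach the hepatocyte and switch on secreted proteins through the transcription factors STAT3, NF-kB and C/EBP. Serum amyloid A (Saa1, Saa2) and serum amyloid P (Apcs) are the main acute phase reactants of the mouse, while Saa3 is made mostly outside hepatocytes, in macrophages and fat. Orm2 is an orosomucoid, Hp (haptoglobin) binds free haemoglobin, Lcn2 (lipocalin 2, also a neutrophil granule protein) binds bacterial siderophores, Serpina3n is a protease inhibitor, and Itih4 belongs to the inter-alpha-trypsin inhibitor heavy chains.

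The promoters of 4 of the members are shown because these are genes whose liver scores went together between mice, as described further on. RefSeq's promoter table (GRCm38.p6) held 9 of the 10 members, all but Hp. Each sequence is the 250 bases before the annotated start, 5′ to 3′ on the gene's strand, and capitals mark matches to 4 motifs: NF-kB (GGG, then any 5 bases, then CC), STAT (TTCNNNGAA) and C/EBP (TTGCNNAA), each on both strands, and the TATA box (TATAAA) on the gene's strand.
Saa1 (chr7:46742981-46743230, minus strand): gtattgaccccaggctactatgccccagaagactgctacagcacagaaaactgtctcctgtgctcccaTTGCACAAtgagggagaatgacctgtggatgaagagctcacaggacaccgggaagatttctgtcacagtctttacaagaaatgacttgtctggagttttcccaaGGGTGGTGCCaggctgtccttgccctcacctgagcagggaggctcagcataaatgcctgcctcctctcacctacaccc
Saa2 (chr7:46751583-46751832, plus strand): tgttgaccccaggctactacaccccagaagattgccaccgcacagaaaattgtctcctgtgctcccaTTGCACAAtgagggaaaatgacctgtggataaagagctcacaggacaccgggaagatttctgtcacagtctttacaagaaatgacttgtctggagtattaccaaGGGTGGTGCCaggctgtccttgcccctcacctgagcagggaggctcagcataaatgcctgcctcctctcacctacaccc
Orm2 (chr4:63362199-63362448, plus strand): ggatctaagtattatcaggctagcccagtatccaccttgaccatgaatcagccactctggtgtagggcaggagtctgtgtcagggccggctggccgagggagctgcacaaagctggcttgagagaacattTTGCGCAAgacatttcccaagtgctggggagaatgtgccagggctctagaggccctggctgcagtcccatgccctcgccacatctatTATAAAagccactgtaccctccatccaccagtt
Lcn2 (chr2:32387740-32387989, minus strand): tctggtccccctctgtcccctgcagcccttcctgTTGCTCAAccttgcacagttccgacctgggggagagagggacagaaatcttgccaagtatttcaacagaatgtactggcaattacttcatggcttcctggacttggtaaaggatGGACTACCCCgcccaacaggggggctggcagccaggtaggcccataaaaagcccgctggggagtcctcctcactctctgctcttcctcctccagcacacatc
The Saa1 and Saa2 promoters were identical at 238 of 250 bases (95.2%), and Saa1 and Saa3 at 52.0%. By the same alignment Orm2 and Lcn2 were identical at 51.6%, so the 52.0% is not particular to the amyloid genes. The C/EBP letters were in 6 of the 9 promoters, those of Saa1, Saa2, Saa3, Orm2, Lcn2 and Il6, against 9.56% of 32851 promoters of the same length. In Orm2 the match, 120 bases before the start, reads alike on both strands. The NF-kB letters were also in 6 of the 9, but 45.8% of all promoters held them. The STAT letters were in Apcs and Itih4, against 7.02% of all promoters, and the TATA box in Orm2, against 7.59%. No C/EBP match overlapped an NF-kB match in the printed sequences. Such matches are letters in a window and do not show binding.

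The values are scores of the authors' distribution free weighted (DFW) method, 1 per probe set and array. A score lies on a log2-like scale, but the deviations between arrays of a tissue are shrunk or stretched by a factor of each probe set. A difference between groups is therefore given as a score difference ± its standard error (SE), and in SD units (divided by the spread within groups), and is not a log2 fold change. Levels of different genes cannot be ranked against each other. The labelled tissues carried their defining markers: Alb, serum albumin, averaged 15.0 in liver, against 6.98 in WAT and 6.54 in BAT. Lep, the adipose hormone leptin, averaged 11.33 in WAT, against 6.43 in liver and 7.34 in BAT, while the thermogenic gene Ucp1 averaged 14.17 in BAT, against 6.27 in liver and 6.44 in WAT. In WAT, some epididymis markers were high in CAAM mouse 6 and others in water mice 1 and 2, and in BAT the skeletal muscle markers averaged between 6.66 and 11.43 in CAAM mice and between 6.95 and 12.01 in water mice. The number of arrays, 5 against 7, limits the precision of every comparison.

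The members differed in the tissues where they were brighter than the median probe set of that tissue (the plot of scores by tissue). In liver, 10 of the 11 probe sets were brighter than the median probe set, and only Il6 was not. In WAT these were 4 (Saa3, Hp, Lcn2 and Serpina3n) and in BAT 2 (Hp and Serpina3n). This dimness limit was chosen after the values were seen. It is no detection call, so a dimmer probe set is not shown to be silent.

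**Figure D1:**
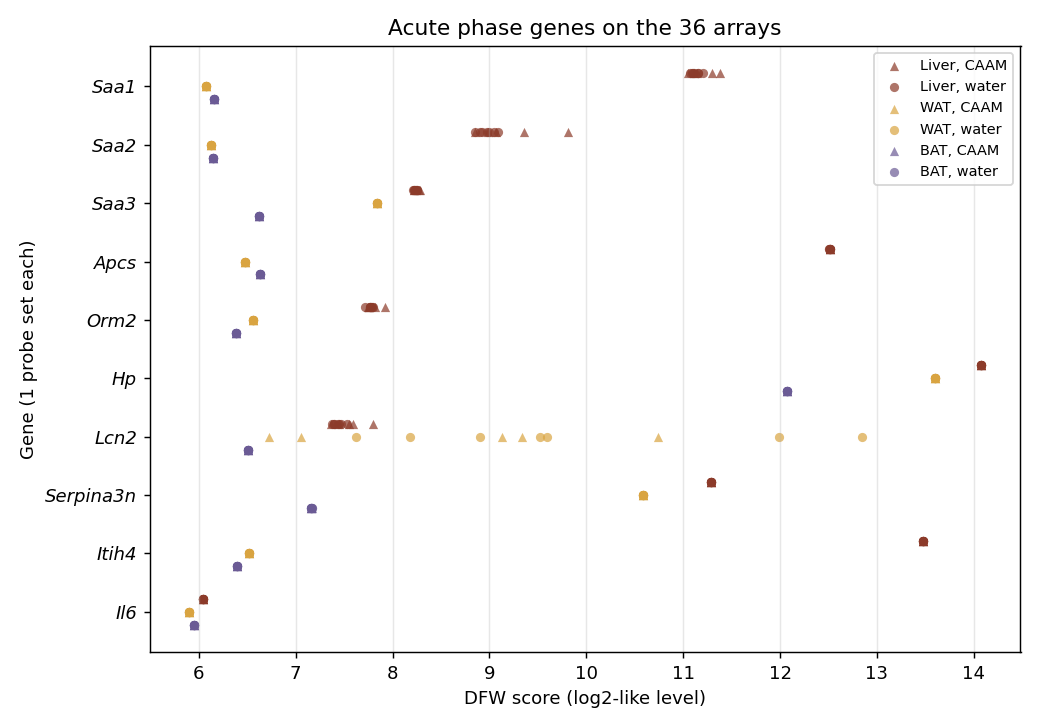
DFW score of 10 acute phase genes (1 probe set each) on 36 arrays, by tissue, with triangles for CAAM mice and circles for water mice. Apcs, Itih4 and Saa1 stood near 12.51, 13.48 and 11.15 in liver and between 6 and 7 in both fats, whereas Lcn2 in WAT spread between 6.72 and 12.84.

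The serum amyloids were liver genes in these mice with the exception of Saa3. Saa1, by the probe set made on its own record, averaged 11.15 in liver, against 6.08 in WAT and 6.15 in BAT, and Saa2 averaged 9.07 in liver, against 6.12 in WAT and 6.15 in BAT. Saa3 averaged 8.24 in liver and 7.84 in WAT, against 6.62 in BAT, where it fell below the median probe set. Apcs averaged 12.51 in liver, against 6.47 in WAT and 6.63 in BAT. Itih4 followed the same order, with 13.48 in liver against 6.52 in WAT and 6.4 in BAT.

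Some other members were brighter than the median probe set in fat as well. Hp was well above the median probe set in every tissue, with 14.07 in liver, 13.6 in WAT and 12.07 in BAT. Serpina3n averaged 11.29 in liver and 10.59 in WAT, against 7.16 in BAT. Lcn2 was the 1 member with a higher mean in WAT than in liver, with 9.30 in WAT against 7.49 in liver and 6.51 in BAT. Its WAT scores ran from 6.72 to 12.84. CAAM mice 2 and 4 were lower in WAT (7.05 and 6.72) than in liver (7.55 and 7.37). Orm2 averaged 7.78 in liver, against 6.56 in WAT and 6.39 in BAT, and Il6, the cytokine itself, stayed near the floor with 6.04 in liver, 5.90 in WAT and 5.95 in BAT. All 11 probe sets differed between each pair of tissues in limma (adjusted p of 1.77e-21 for Saa1, liver minus WAT), but so did 99.8% of all probe sets for liver minus WAT, 100% (45015 of 45037) for liver minus BAT and 99.8% for BAT minus WAT. The scores of an array varied so little within a tissue that this test separates almost every probe set. The tissues appeared to have been summarised apart, so the levels are described without reading anything from that test.

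In liver, every one of the 11 probe sets had a higher mean score in CAAM mice than in water mice, and none passed the moderated test. The direction was not kept under every scaling: after centring on array medians Hp (-7.85e-05) and Itih4 (-5.06e-05) were lower in CAAM mice, and after quantile normalization Serpina3n was lower (-0.00138) and Hp and Itih4 were at 0. The differences ran between 0.61 and 1.79 SD units with a median of 0.98, while the median over all genes was -0.09. With limma, the adjusted p-values lay between 0.68 and 0.888, 0 of 11 passed at 0.05, and 0 of 45037 probe sets passed (0%). At an unadjusted p under 0.05, 2 of the 11 passed (Il6 and Serpina3n), as did 6.77% of all probe sets. By rank products, the method of the study, at a false positive share of 0.05, 5 probe sets were called higher (Saa2, Saa3, Apcs, Lcn2 and Serpina3n), against 1.64% of all probe sets called higher. Both Saa1 probe sets and Orm2 were called higher and lower at once, against 1.19% of all probe sets called lower, and Hp, Itih4 and Il6 were not called. These calls fell on the probe sets with the widest scores: 99.6% of all rank products calls in liver lay among the 10% of probe sets whose scores spread most. After each difference was divided by the SD of its probe set, rank products called 0 of the 11. The share of all probe sets called after that division is not given here, so the 0 says nothing particular to the members.

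**Figure D2:**
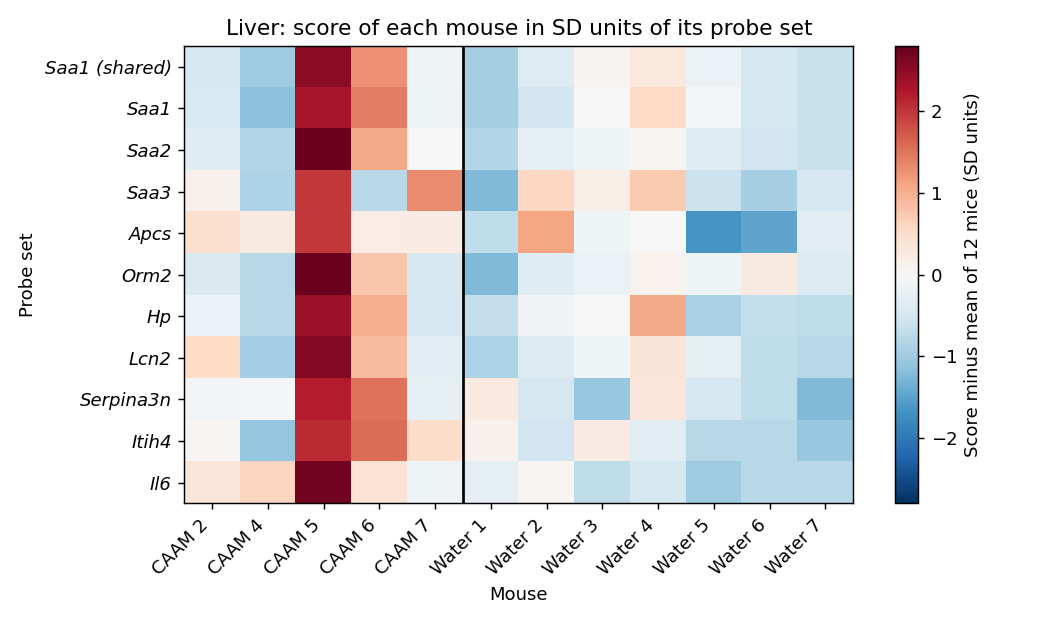
Liver scores of the 11 probe sets (down) in the 5 CAAM mice and the 7 water mice (across), each as its distance from the mean of 12 mice in SD units. CAAM mouse 5 was the highest of the 12 mice in all 11 probe sets (the row marked shared is the Saa1 probe set whose target is a Saa2 record).

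A single animal carried much of the difference. CAAM mouse 5 had the highest liver score of all 12 mice in 11 of 11 probe sets, whereas it was the highest in 7.95% of all probe sets. CAAM mouse 6 came next in 7 of the 11. Without mouse 5 the difference between CAAM and water mice stayed above 0 in all 9 genes brighter than the median probe set, but it was 0.0215 for Saa1, 0.0947 for Saa2, 0.00458 for Saa3, 0.00304 for Orm2, 7.83e-06 for Hp, 0.0537 for Lcn2, 0.00107 for Serpina3n and 3.77e-05 for Itih4, each more than 1.5 times smaller than with all mice. With both mice left out, a choice made after seeing the data, the mean of Saa1, Saa2, Orm2 and Hp was lower in the remaining CAAM mice than in the water mice. Rank products then called 0 members higher and 5 probe sets lower (both of Saa1, and Saa2, Orm2 and Lcn2), where 167 of all 45037 probe sets were called higher and 574 lower. Lcn2 was called lower although its mean stayed higher in the remaining CAAM mice, by 0.0194.

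Saa2 is a main plasma amyloid of the response. Its liver scores were 8.98, 8.85, 9.81, 9.36 and 9.07 in CAAM mice 2, 4, 5, 6 and 7, against a lowest of 8.85, a median of 8.98 and a highest of 9.09 in water mice. Mice 5 and 6 stood above all water mice, mouse 4 stood with the lowest of them, and the groups overlapped. Saa2 averaged 9.21 ± 0.382 in CAAM livers and 8.97 ± 0.0818 in water livers (SD, n = 5 and 7), a difference of 0.244 ± 0.141 (SE) with an adjusted p of 0.788 in limma. Saa1, by its own probe set, had scores of 11.11, 11.05, 11.38, 11.29 and 11.14 in the same CAAM mice, against a lowest of 11.07, a median of 11.11 and a highest of 11.21 in water mice. Again only mice 5 and 6 exceeded the water group, and the difference was 0.067 ± 0.053 (SE, adjusted p = 0.858, limma). The other probe set annotated Saa1 gave 0.14 ± 0.1 (adjusted p = 0.839, limma), but its target sequence is a Saa2 record in RefSeq, and Saa1 and Saa2 transcripts are near copies, so signal cannot be assigned to 1 of the genes with certainty.

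Saa3 was high in other mice. Its liver scores were 8.242, 8.220, 8.286, 8.222 and 8.271 in CAAM mice 2, 4, 5, 6 and 7, against a lowest of 8.211, a median of 8.229 and a highest of 8.257 in water mice. Here mice 5 and 7 exceeded the water group and mouse 6 lay near its low end. The difference was 0.0141 ± 0.0132 (SE, adjusted p = 0.888, limma). Apcs scores were 12.515 in CAAM mice 2, 4, 6 and 7 and 12.519 in mouse 5, against a lowest of 12.510, a median of 12.513 and a highest of 12.517 in water mice. All 5 CAAM mice were above the median of the water mice, though water mouse 2 was above 4 of them, and the difference was 0.00286 ± 0.00133 (SE, adjusted p = 0.741, limma).

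The transport and binding proteins followed the pattern of Saa1 and Saa2. Orm2 scores were 7.76, 7.74, 7.93, 7.82 and 7.76 in CAAM mice 2, 4, 5, 6 and 7, against a lowest of 7.72, a median of 7.77 and a highest of 7.80 in water mice. Only 2 of the 5 CAAM mice were above the median of the water mice, and the difference was 0.034 ± 0.0293 (SE, adjusted p = 0.873, limma). The Orm genes are close copies of each other, and how the probe set divides between them was not tested. Lcn2 scores were 7.55, 7.37, 7.80, 7.59 and 7.45 in CAAM mice, against a lowest of 7.38, a median of 7.44 and a highest of 7.53 in water mice. Mice 2, 5 and 6 exceeded every water mouse and mouse 4 was below them all. The difference in Lcn2 was 0.116 ± 0.0633 (SE, adjusted p = 0.773, limma). The scores of Hp are the same to 2 decimals, so they are given in SD units from the mean of all 12 mice, and were -0.19, -0.77, 2.41, 1.01 and -0.46 in CAAM mice against a lowest of -0.90, a median of -0.66 and a highest of 1.05 in water mice. Water mouse 4 was second to CAAM mouse 5, and the difference was 0.70 SD units (adjusted p = 0.862, limma).

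Serpina3n, Itih4 and Il6 differed by more than 1 SD unit, as Apcs (1.22 SD units) and Lcn2 (1.03 SD units) did. Serpina3n, in SD units from the mean of all 12 mice, stood at -0.08, -0.06, 2.19, 1.53 and -0.25 in CAAM mice 2, 4, 5, 6 and 7, against a lowest of -1.24, a median of -0.48 and a highest of 0.33 in water mice. All 5 were above the median of the water mice, and 2 were above every water mouse. The difference in Serpina3n was 1.35 SD units, or 0.00161 ± 0.000677 in score (unadjusted p = 0.0372, adjusted p = 0.728, limma), and after quantile normalization it was -0.00138, the opposite direction. Serpina3n belongs to a family of close copies, so its signal may be shared. Itih4 stood at 0.04, -1.08, 2.08, 1.56 and 0.51 SD units in CAAM mice, against a lowest of -1.07, a median of -0.53 and a highest of 0.24 in water mice. Mice 5, 6 and 7 were above every water mouse, and the difference was 1.22 SD units (adjusted p = 0.741, limma). Il6 differed most, by 1.79 SD units (unadjusted p = 0.00971, adjusted p = 0.68, limma), with all 5 CAAM mice above the median of the water mice. Its probe set was dimmer than the median probe set, and the difference in score was 2.96e-05 ± 9.42e-06, so a change in Il6 mRNA is not readable from it. In 1 limma fit of all 3 tissues the adjusted p of Il6 was 0.00713, and it was then the only member called. That fit took 1 spread per probe set over all tissues and treated the 3 arrays of a mouse as independent. The SD of Il6 was 2.2e-05 in liver, against 2.52e-06 in WAT and 4.23e-06 in BAT. That p therefore does not measure the spread between livers.

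**Figure D3:**
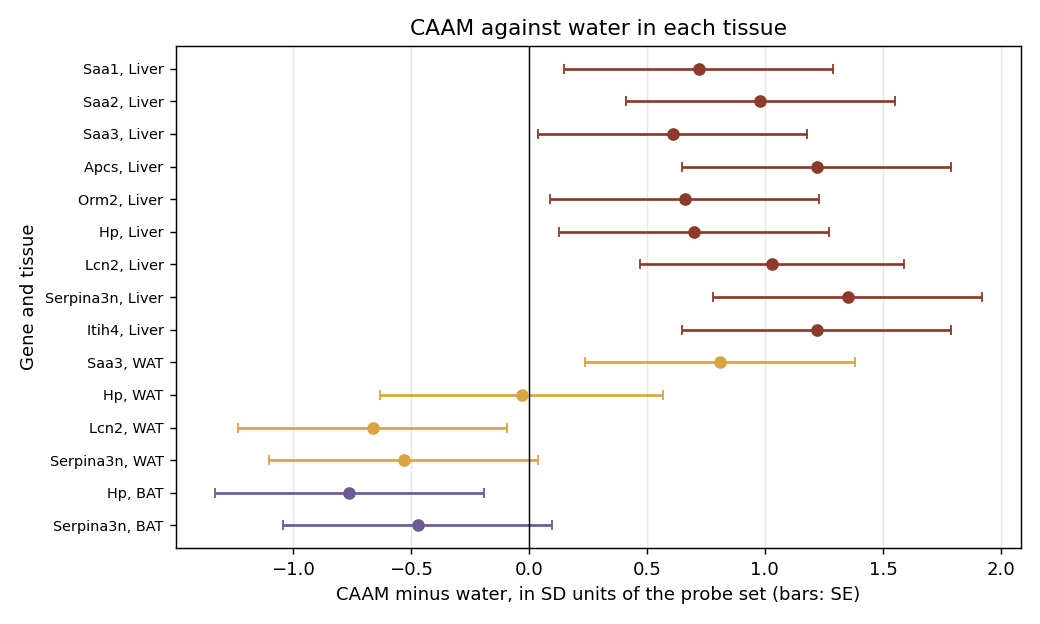
CAAM minus water in SD units of each probe set, with bars for 1 SE, for the members brighter than the median probe set in liver, WAT and BAT (5 CAAM and 7 water mice). All 9 liver genes lay above 0, between 0.61 and 1.35, while 5 of the 6 points of the fats lay below 0, with the scores as deposited (other scalings turn Hp, Itih4 and Serpina3n in liver and Hp and Serpina3n in the fats).

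Markers of macrophages moved with the members in liver. Of 10 macrophage markers measured, 10 had a higher mean in CAAM mice and 8 were called higher by rank products, with a median difference of 1.36 SD units and 0 passing limma after adjustment. Their mean over the list ranged between -0.31 and 2.17 SD units in CAAM mice, against -1.33 to 0.36 in water mice, and CAAM mouse 5 was the highest in 10 of 10. Neutrophil markers were higher in 4 of 8 and hepatocyte markers in 5 of 8. In tissue pieces, fewer cells of a type and less RNA per cell cannot be told apart, and the part of the macrophage markers in the members' scores was not tested.

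Other genes of the response were read from lists, which were drawn up with earlier results of these data known and are no independent evidence of a direction. Of 20 further positive acute phase genes measured, 17 had a higher mean in CAAM mice, 6 were called higher and 1 lower by rank products, and 0 passed limma after adjustment (2 at an unadjusted p under 0.05). Their median difference was 0.54 SD units, and 44.6% of all genes had a higher mean. Fgl1, a fibrinogen-like secreted protein, differed by 0.00603 ± 0.00183 (1.86 SD units, unadjusted p = 0.0075, adjusted p = 0.68, limma), and Cd14, the co-receptor for bacterial lipopolysaccharide, by 0.0132 ± 0.00579 (1.30 SD units, adjusted p = 0.728). Hamp (the iron hormone hepcidin) and Steap4 were also called higher. Named after their values were seen, Lrg1 and the fibrinogen chain Fgb made up the 6, and the 1 called lower was Saa4, the constitutive serum amyloid. Of the 8 negative acute phase genes, those that fall in inflammation, 4 had a higher and 4 a lower mean, 0 passed limma (none at an unadjusted p under 0.05), and 1 was called by rank products (Serpina6, the corticosteroid-binding globulin, lower). CAAM mouse 5 was the highest in 11 of the 20 positive genes and in 0 of the 8 negative ones.

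Of 26 genes of interleukin-6, interleukin-1 and TNF signalling, 21 had a higher mean in CAAM livers, 6 were called higher and 3 lower by rank products, and 0 passed limma after adjustment. The median difference was 0.53 SD units. Cebpd, a C/EBP transcription factor induced in the response, differed by 0.0122 ± 0.00462 (1.5 SD units, unadjusted p = 0.0236, adjusted p = 0.705, limma), and Il6ra, the interleukin-6 receptor, by 0.00173 ± 0.000741 (1.32 SD units, adjusted p = 0.728). Il1b and Cebpb were also called higher. Named after their values were seen, Nfkbia and Bcl3 made up the 6, and Il1r1, Lifr and Socs3 were called lower, although the means of Il1r1 and Socs3 were higher in CAAM mice by 0.29 and 0.06 SD units.

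Within liver the members went together from mouse to mouse, mouse 5 in particular. After each group's mean was taken out, all 45 pairs of the 10 genes correlated above 0 over the 12 mice, with a median Pearson r of 0.71. Without CAAM mouse 5 the median was 0.40 and 35 pairs were above 0. Over 165 relations computed in all tissues, 9 liver pairs passed after Benjamini-Hochberg adjustment of a permutation p (two-sided, mice permuted within groups), all among Saa1, Saa2, Orm2, Hp and Lcn2, whereas 2 passed by rank correlation. In the 7 water mice alone 0 of them passed the exact test.

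Saa1 and Saa2 had r = 0.96 (rho = 0.97, permutation p = 4e-05 for r and 0.00014 for rho, adjusted p = 0.0066 and 0.0181), and r was 0.93 without CAAM mice 4 and 5, the 2 farthest from the median of Saa1. As the probe sets of near copies, they may read the same transcripts. Saa2 and Lcn2 had r = 0.94 (rho = 0.92, permutation p = 0.00056 and 0.00022, adjusted p = 0.0185 and 0.0181), r = 0.73 without CAAM mice 4 and 5, and r = 0.97 in the 7 water mice (exact permutation, adjusted p = 0.0546, not passing). Hp and Lcn2 had r = 0.92 (rho = 0.83, permutation p = 0.0002 and 0.00619, adjusted p = 0.014 and 0.109), and r = 0.80 without CAAM mouse 5 and water mouse 4. In the 6 other pairs that passed r lay between 0.89 and 0.95, and the pair of these 5 genes that did not pass was Orm2 with Hp (r = 0.84, rho = 0.69, permutation p = 0.00898 and 0.0444, adjusted p = 0.0926 and 0.201).

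**Figure D4:**
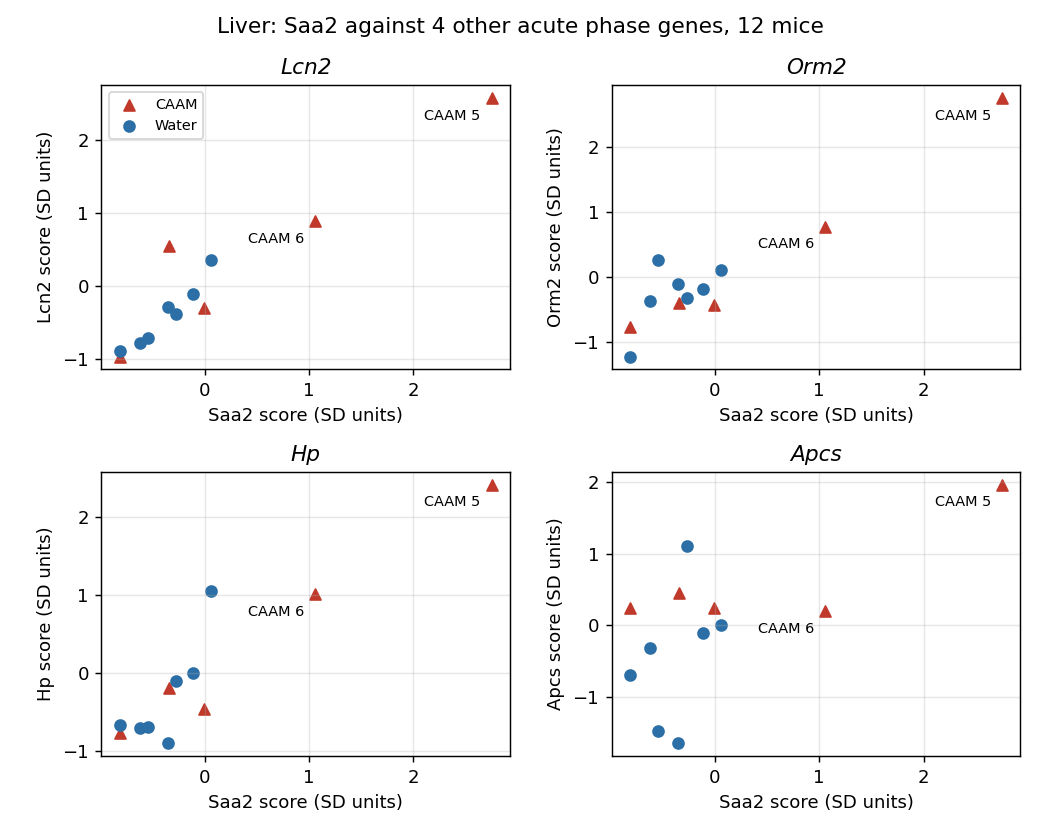
Liver score of Saa2 (x, SD units) against Lcn2, Orm2, Hp and Apcs (y, SD units) in 5 CAAM mice (triangles) and 7 water mice (circles). CAAM mice 5 and 6 lie at the upper right for Lcn2, Orm2 and Hp, while for Apcs mouse 6 stands at 0.20 SD units.

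The r of other members with Saa2 in liver was set against that of every probe set. Group means were not taken out, and CAAM mouse 5 was included. Each share counts Saa2 itself and the member itself, and any other member probe set with as high an r. The shares are therefore no independent background. Of all probe sets, 0.00888% had an r with Saa2 at or above that of Saa1. The share was 0.0111% for Lcn2 (0.95), 0.0133% for Orm2 (0.94), 0.02% for Hp (0.92), 2.08% for Saa3 (0.65) and 2.18% for Apcs (0.65). Among the genes that are not members, the closest over the 12 livers were Steap4 (r = 0.93), Prtn3 (0.92), Cxcl1 (0.92), Cytip (0.91) and Ran (0.91), and CAAM mouse 5 was the highest in each. Cytip, with a mean score of 6.41, was dimmer than the median probe set. Steap4 is a metalloreductase of the inflammatory response, Prtn3 is a neutrophil granule protease, and Cxcl1 is a chemokine that draws neutrophils. The list of 8 neutrophil markers in liver had 4 higher and 4 lower means in CAAM mice, with a median of -0.23 SD units. Whether the 5 genes share a function was not tested.

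In WAT the members gave no common direction. Over the 11 probe sets, 5 had a higher and 6 a lower mean in CAAM mice, with a median difference of -0.03 SD units, 0 passed limma (0% of all probe sets, with 0 members and 1784 probe sets at an unadjusted p under 0.05), and rank products called 0 higher (0.822% of all probe sets) and 1 lower (1.95%), which was Lcn2. The WAT scores of Lcn2 were 7.05, 6.72, 10.74, 9.13 and 9.34 in CAAM mice 2, 4, 5, 6 and 7, against 12.84, 11.99, 8.18, 9.53, 8.90, 7.62 and 9.59 in water mice 1 to 7. Water mice 1 and 2 were above all others, CAAM mice 2 and 4 below all others, and the rest overlapped. Lcn2 averaged 8.60 ± 1.69 in WAT of CAAM mice and 9.81 ± 1.93 in WAT of water mice (SD, n = 5 and 7), a difference of -1.21 ± 1.05 (SE, adjusted p = 1.0, limma). Without water mice 1 and 2, a choice made after seeing the data, it was -0.167.

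Water mice 1 and 2 also had high scores of some epididymis genes in WAT. The markers did not go together: Lcn8, an epididymal lipocalin, stood at 6.5, 6.66, 6.71, 6.48 and 6.36 in CAAM mice 2, 4, 5, 6 and 7, against 19.85 and 18.4 in water mice 1 and 2 and between 9.32 and 10.88 in the other water mice, so that the groups did not overlap. Serpina1f and Spint4 stood at 11.17 and 12.07 in CAAM mouse 6, against 6.02 and 6.41 in water mouse 1 and 6.03 and 6.38 in water mouse 2. The mean score of 6 epididymis markers was 6.46, 6.41, 6.39, 10.36 and 7.54 in CAAM mice 2, 4, 5, 6 and 7, against 12.4 and 11.25 in water mice 1 and 2 and between 7.32 and 7.88 in the other water mice. CAAM mouse 5, with the highest Lcn2 of its group, had the lowest mean of these markers, and CAAM mouse 6, with the third highest mean, had an Lcn2 of 9.13. The part of the epididymis in the Lcn2 scores was not tested.

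**Figure D5:**
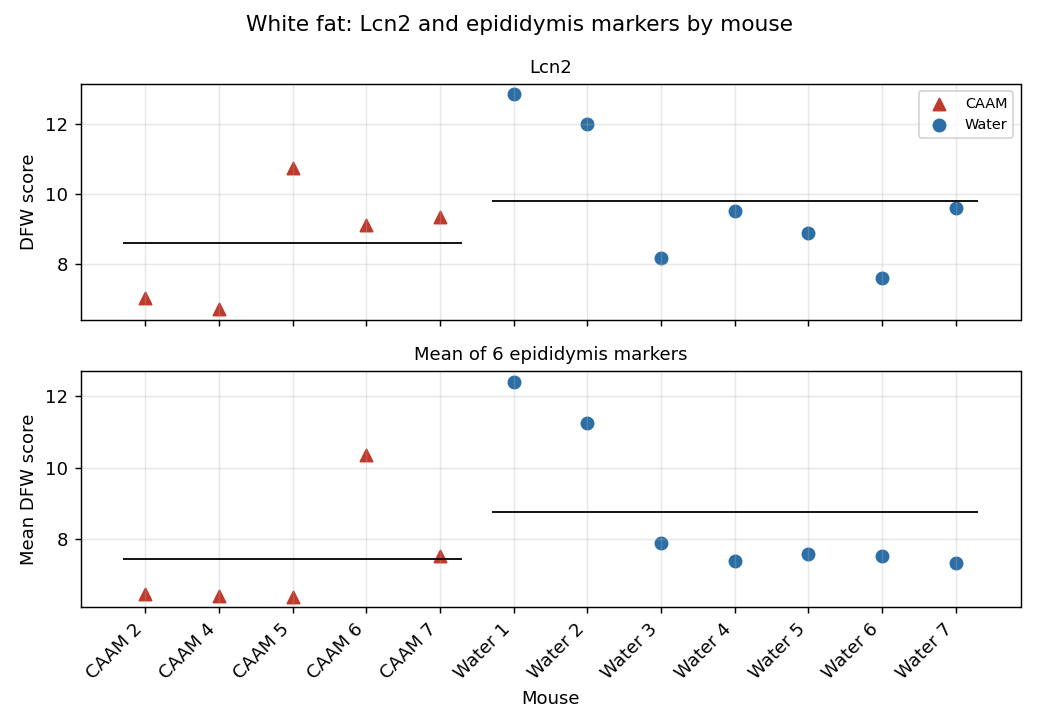
Lcn2 score (top) and mean score of 6 epididymis markers (bottom) in WAT of 5 CAAM mice (triangles) and 7 water mice (circles), with lines at the group means. Water mice 1 and 2 were the highest in both, at 12.84 and 11.99 for Lcn2 and at 12.4 and 11.25 for the markers.

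The other WAT members are given in SD units from the mean of 12 mice. Saa3 stood at 1.02, -1.41, 0.22, 0.47 and 1.96 SD units in CAAM mice 2, 4, 5, 6 and 7, against a lowest of -1.06, a median of -0.57 and a highest of 1.21 in water mice. CAAM mouse 7 was the highest and CAAM mouse 4 the lowest, and the difference was 0.81 SD units (adjusted p = 1.0, limma). Serpina3n stood at 1.07, -1.0, 0.03, -1.34 and -0.31 SD units in CAAM mice, against a lowest of -1.38, a median of 0.64 and a highest of 1.37 in water mice. Its 3 lowest mice, water mouse 1, CAAM mouse 6 and water mouse 2, were the 3 with the most epididymis marker signal, and the difference was -0.53 SD units (adjusted p = 1.0, limma). Lcn2 and Serpina3n, which had r = 0.73 in liver (adjusted p = 0.143), went apart in WAT (r = -0.65, rho = -0.62, permutation p = 0.0297 and 0.0475, adjusted p = 0.144 and 0.206), and r was -0.29 without water mice 1 and 2. The 2 WAT pairs that passed were Saa1 with Hp (r = 0.82, rho = 0.83, permutation p = 0.00171 and 0.00257, adjusted p = 0.0261 and 0.0848, r = 0.66 without CAAM mouse 4 and water mouse 1) and Apcs with Lcn2 (r = -0.82, rho = -0.83, permutation p = 0.00235 and 0.00355, adjusted p = 0.0323 and 0.0849, r = -0.90 without CAAM mouse 4 and water mouse 5), and in each 1 gene, Saa1 or Apcs, was dimmer than the median probe set. Hp differed by -0.03 SD units. Mesothelium markers, which label the lining of the fat pad, were lower in CAAM mice in 5 of 5 and called lower by rank products in 5 of 5, with list means between -1.10 and -0.14 SD units in CAAM mice against -0.47 to 1.69 in water mice. Their part in the members' scores was not tested. The genes closest to Saa3 over the 12 WAT arrays were E2f8 (r = 0.91), Atad2 (0.89), Ccna2 (0.88), Racgap1 (0.87) and Hmmr (0.85), of which E2f8, Racgap1 and Hmmr were dimmer than the median probe set. Of 8 neutrophil markers, 6 had a higher mean in CAAM mice, with a median of 0.65 SD units, 2 were called higher by rank products (S100a8, 0.69 SD units, and Ltf, 0.83 SD units), and 0 passed limma. In score, the list mean was 6.93 in CAAM mouse 6 and 6.84 in CAAM mouse 7, the CAAM mice with the highest epididymis marker means. It was 6.83 in CAAM mice 2, 4 and 5 and 6.82 to 6.83 in water mice, mice 1 and 2 included. The part of the epididymis in these scores was not tested. List means of the neutrophil markers lay between -0.01 and 0.66 SD units in CAAM mice against -0.74 to 0.25 in water mice, and the part of these markers in the scores of Lcn2 was not tested. Of the acute phase and signalling lists, rank products called Lbp, the lipopolysaccharide binding protein, higher (0.83 SD units) and Cebpd higher (0.26 SD units).

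In BAT, only Hp and Serpina3n were brighter than the median probe set, and both had a lower mean in CAAM mice. Both directions turned after quantile normalization (0.00127 for Hp and 0.000391 for Serpina3n), where rank products called 0 members, and that of Serpina3n also turned after centring on array medians (1.73e-05). Hp stood at 0.03, -1.31, 1.05, -0.03 and -1.89 SD units in CAAM mice 2, 4, 5, 6 and 7, against a lowest of -0.78, a median of 0.11 and a highest of 1.80 in water mice. Mice 4 and 7 were below every water mouse and mouse 5 was second only to water mouse 4. The difference in Hp was -0.000397 ± 0.000296 (-0.76 SD units, adjusted p = 0.894, limma). Serpina3n stood at -0.14, -0.82, 1.34, -0.64 and -1.12 SD units in CAAM mice, against a lowest of -1.09, a median of 0.30 and a highest of 1.61 in water mice, and differed by -0.000355 ± 0.000433 (-0.47 SD units, adjusted p = 0.952, limma). For Serpina3n 1 CAAM mouse, mouse 7, lay outside the range of the water mice. Limma called 0 of 11 (0% of all probe sets, with 0 members and 2886 probe sets at an unadjusted p under 0.05), and rank products called both genes lower (2.06% of all probe sets) and 0 members higher (1.18%). Without CAAM mouse 4, without CAAM mouse 7 or without water mouse 3, rank products called 0 members, and without water mouse 4, 5, 6 or 7 it called 1. The shares of all probe sets called in these runs and after quantile normalization are not given here. These counts therefore say nothing particular to the members. Skeletal muscle markers were lower in CAAM mice in 6 of 6 and called lower by rank products in 6 of 6, with list means between -0.80 and 1.53 SD units in CAAM mice against -0.68 to 1.87 in water mice. Macrophage markers were lower in 8 of 10, with 6 called lower and 1 higher, and list means between -0.44 and 0.43 SD units in CAAM mice against -0.76 to 2.0 in water mice. Their part in the scores of Hp and Serpina3n was not tested. Of the same signalling list in BAT, 4 genes were called higher (Cebpd, Nfkbia, Cebpb and, named after its value was seen, Lifr), with Cebpd at 1.38 SD units (unadjusted p = 0.0346, adjusted p = 0.75, limma) and Jak2, a kinase of the interleukin-6 pathway, at 1.77 SD units without a rank products call (unadjusted p = 0.0132, adjusted p = 0.701, limma).

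With the scores as deposited, Hp was the 1 member whose score in a mouse's liver went with its score in the same mouse's BAT. Over the 12 mice r was 0.85 (rho = 0.73, permutation p = 0.00143 and 0.0179, adjusted p = 0.0261 and 0.131), and it was 0.64 without CAAM mouse 5 and water mouse 4. The SD of Hp between mice was 4.27e-05 in liver and 0.000538 in BAT. The array medians spanned more, 0.000345 in liver and 0.00143 in BAT. The r was not recomputed after centring on array medians or quantile normalization. For comparison, the median r between liver and BAT over all probe sets was 0.12, and 14.0% were at 0.5 or more. For the other 9 genes this r lay between -0.11 and 0.49. Of these, only Serpina3n (r = 0.08) was brighter than the median probe set in both tissues. The rest were dimmer than it in BAT, so their r says little. Between liver and WAT the 10 genes had a median r of -0.11, and between WAT and BAT of 0.29, with no gene passing after adjustment.

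Whether the CAAM difference itself varied between tissues was tested in SD units in limma with the mouse as a block. None of the 11 probe sets passed for liver minus WAT (0.329% of all probe sets passed), for liver minus BAT (0.273%) or for BAT minus WAT (0.0622%). The largest were Serpina3n, with 1.88 ± 0.804 SD units for liver minus WAT (unadjusted p = 0.0196, adjusted p = 0.364), and the dim Il6, with 2.39 SD units for liver minus BAT (adjusted p = 0.176). The SE of 0.804 was the same for all 11 probe sets, so it reflects a spread shared over probe sets. It does not measure the spread of Serpina3n itself. For liver minus BAT the SEs were nearly alike, between 0.771 and 0.786. That the members leaned upward in liver and not in fat was therefore not shown to be a difference between tissues.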

How the data were processed

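Livers, white and brown fat of 12 mice were hybridised to 36 arrays. The authors quantified them by the DFW method (R 2.7.2, per the submission notes) and deposited a score for each probe set on each array. Per the deposited values, the score is log2-like in level, whereas differences between arrays are weighted by probe set, so no folds were formed. Of 45101 probe sets, 64 controls were left out. Probe sets were named from the platform annotation (34945 with 1 symbol, 932 with several, 9160 with none), and each gene in lists had 1 probe set.

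CAAM and water were compared within each tissue with limma 3.58.1 (R 4.3.3, lmFit and eBayes, Benjamini-Hochberg over all probe sets) and with rank products, the study's test. Rank products calls were made at a false positive share of 0.05, from 100 permutations of values within arrays (20 in alternatives). The scripts were tested on simulated data. SD units are the residual SD within groups (not moderated) in group differences, and the SD of 12 mice for single mice. Tissue levels were compared with the mouse as a block. Correlations between mice used 100000 permutations, or all 5040 orders in water mice. The members, the gene lists and the marker lists were chosen with earlier results of these data known. Besides the members, up to 4 genes per list and tissue with the lowest p among those called or at an unadjusted p under 0.05 were named, and the 5 genes with the highest r to Saa2 in liver, Saa3 in WAT and Lcn2 in BAT (those of BAT are not given, since Lcn2 was dim there). Alternatives were other scales, centring, quantile normalization, a filter on dim probe sets, 1 fit of all tissues, the mouse number as a block and each mouse left out. Nothing states that mice were housed or processed apart. The p-values of limma within a tissue and of the correlations rest on the spread between these mice. The false positive share of rank products does not, as values were permuted within arrays. Other mixtures were not analysed here.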

Additional observations from a re-analysis of the deposited data

Results flagged for a closer look

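Of 32 groups of arrays tested for a mouse far from the others, 3 were picked out, and chance alone picks about 1 in 20. In liver, the Apcs score of CAAM mouse 5 was separated from the next CAAM mouse by 0.86 of the group's range. In liver, the Orm2 score of water mouse 1, the lowest, was separated by 0.57 of the range of the water group. In WAT, the Saa3 score of water mouse 3, the highest, was separated by 0.67 of the range of the water group.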

How the results depend on the processing

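Of 149 recomputed values for 15 differences between CAAM and water, 134 kept their direction, 13 turned and 2 became 0 (Hp and Itih4 in liver after quantile normalization), and of 180 with a mouse left out, 175 did. After centring on array medians the difference turned for Hp (-7.85e-05) and Itih4 (-5.06e-05) in liver, Hp in WAT (0.000316) and Serpina3n in BAT (1.73e-05). After quantile normalization it turned for Serpina3n in liver (-0.00138), Hp and Serpina3n in WAT (0.0159 and 0.000891) and Hp and Serpina3n in BAT (0.00127 and 0.000391). Without CAAM mice 5 and 6 it turned in liver for Saa1 (-0.0266), Saa2 (-0.00265), Orm2 (-0.0141) and Hp (-8.05e-06). With a mouse left out, Hp in WAT ranged from -4.8e-06 to 2.41e-06. The cause was not tested.

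Rank products called 8 member probe sets in liver, 0 after division by the SD, 5 without CAAM mice 5 and 6 (all lower, where 22.5% of all calls were higher, against 58.0%), and 8 without any single mouse. In WAT it called 1, 0 after division by the SD, 2 on the linear scale, and 1 to 3 with a mouse left out (3 without CAAM mouse 2). In BAT it called 2, 0 after division by the SD, with dim probe sets left out or after quantile normalization, 1 on the linear scale, and 0 to 2 with a mouse left out. The shares of all probe sets called under these scalings and filters are not given here, so counts of 0 say nothing particular to the members. Limma called 1 member in liver, the dim Il6, in 1 fit of all tissues, where 399 probe sets passed and the spread was pooled over tissues. Of 12 correlations that passed, 2 did by rank and 0 in water mice only. Mouse numbers did not pair the groups: the deviations of mice with the same number correlated between -0.20 and 0.15, and 1 of 15 CAAM arrays matched its own number best. With the number as a replicate block, limma called 0 members in each tissue, and Saa2 in liver differed by 0.235 (adjusted p = 0.831). The tissue differences were called for 11 probe sets with and without the block.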
